A study of Mus musculus with 2 samples.

Results

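The transcriptome described here is that of 661W cells carrying the empty vector, 1 of 2 libraries of the series, chosen by its label. The other library, of 661W cells stably expressing 3xF-TRPM1 (a FLAG-tagged TRPM1 channel), was used only to learn how the table of genes had been filtered. 661W is an immortalized mouse line that came from a retinal tumour of animals carrying the SV40 T antigen, and it is labelled as a photoreceptor cell. The empty vector cells were a stable population made with a retroviral plasmid and puromycin, and both populations were grown in DMEM with fetal bovine serum. The question was which genes define these cells at baseline, by their level and by their place in the order of all listed genes. With 1 library there is no replicate error and no test, and each interval given below is a 95% exact Poisson interval that covers counting error only.

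Cones sense light through an opsin that activates transducin, whose alpha subunit is encoded by Gnat2. Transducin then switches on the phosphodiesterase Pde6, which lowers cGMP and closes the Cnga3 and Cngb3 channels. Otx2 stands at the head of the photoreceptor programme and acts upstream of Crx, while Pax6, Six3, Lhx2 and Rax belong to the earlier eye field. Fibroblasts, by contrast, are known by their fibrillar collagens, fibronectin and matricellular proteins. T antigen binds the retinoblastoma protein and p53, which frees E2F factors and blunts the p53 response. Transcripts of the T antigen itself were not analysed here.

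The table gave CPM, a read count scaled for the depth of the library, and listed 13281 genes with a median of 29.3 CPM and quartiles of 8.13 and 76.7 CPM. A CPM value counts reads and so grows with the length of a gene. Levels of different genes were therefore compared as CPM per kb, the CPM divided by the exon length in the table, of which the median was 6.60. Each value was a whole multiple of the same step, and the listed genes held 16404444 reads. The lowest value, 1.02 CPM, stood for 17 reads. The table keeps only genes over 1 CPM in each library. A gene that is not listed may therefore have been low in either library, and the table sets no upper limit on its level in the empty vector cells. Of the 22028 protein-coding gene models of GENCODE M21, 11965 were listed (54.3%). This share is the background for each count of listed protein-coding members below. In the library, 9555 listed genes reached 10 CPM (71.9%), 2541 reached 100 CPM (19.1%) and 65 reached 1000 CPM (0.489%).

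Some of these genes could not be told apart by sequence, and their sequences are shown because the values of both partners are uncertain for that reason. The mitochondrial gene mt-Co2, which encodes subunit 2 of cytochrome c oxidase, has its first 75 bases at chrM:7013-7087 on the plus strand of GRCm38. The same 75 bases open Gm28661, a nuclear copy on the minus strand of chromosome 1, and the transcripts were identical over all 681 aligned bases.
mt-Co2: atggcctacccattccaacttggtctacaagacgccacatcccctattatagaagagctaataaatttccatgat
Gm28661: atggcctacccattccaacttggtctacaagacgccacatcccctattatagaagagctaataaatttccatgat
The same held for a pair of 57-base genes annotated as microRNAs, Gm23935 on chromosome 16 (11144125 to 11144181, plus strand) and Gm24270 on chromosome 9 (56223715 to 56223771, minus strand).
Gm23935: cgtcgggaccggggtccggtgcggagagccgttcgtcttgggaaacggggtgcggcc
Gm24270: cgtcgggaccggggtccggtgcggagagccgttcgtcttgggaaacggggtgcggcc
Although identical, Gm23935 held 9645 reads and Gm24270 held 761 reads, a ratio of 12.7 per kb (11.8 to 13.7). At 57 bases, a very short divisor, Gm23935 also had the highest level of any listed gene per length, 10115 CPM per kb. In all, 1420 of the listed genes (10.7%) shared at least 20% of their 75-base windows with another gene or overlapped another gene's exons by at least 20%. Genes under 75 bases, such as this pair, hold no such window and could enter that count only by overlap. Those named below are marked as such.

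The 5 genes used to mark the line were spread over the whole order of levels, and ranks in this paragraph are by CPM per kb unless CPM is named. Actb, the cytoskeletal beta-actin (chr5:142903115-142906754), stood at rank 11 with 1308 CPM per kb and 3503 CPM. Col1a1, an alpha chain of type I collagen (chr11:94936224-94953042), stood at rank 266 with 106 CPM per kb and 696 CPM (683 to 709). Col3a1, the type III collagen chain (chr1:45311538-45349706), had 50.2 CPM per kb and 493 CPM (482 to 503) at rank 778. Otx2 (chr14:48657677-48673819) had 11.9 CPM per kb and 50.4 CPM (47.0 to 53.9) at rank 4357, above the median of all listed genes. Gnat2 (chr3:108092789-108101432) had 0.858 CPM per kb at rank 12021. Its 2.57 CPM (1.86 to 3.46) stood for 43 reads. Per kb, Actb was 1524 times Gnat2 (1131 to 2105), Col1a1 was 124 times Gnat2 (91.7 to 171) and Actb was 110 times Otx2 (102 to 117). By CPM, Gnat2 shared its value with its neighbours Trappc6a and Adssl1, and 2000 listed genes had intervals that overlapped its own. Its place in the order by CPM is therefore known only as between ranks 11051 and 13000. The interval of Otx2 overlapped those of 980 genes, between ranks 4280 and 5258.

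**Figure D1:**
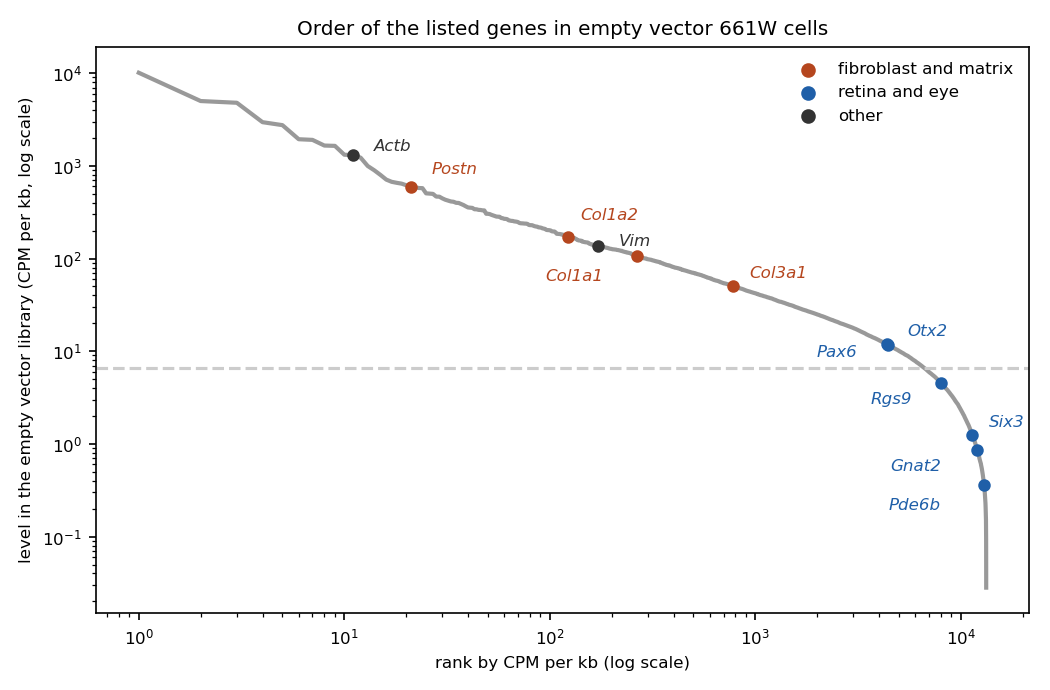
Level of each of the 13281 listed genes in the empty vector library (CPM per kb, log scale) against its rank (log scale), drawn as a grey line, with the median of 6.60 CPM per kb dashed. Fibroblast and matrix genes sit on the upper part of the line, Otx2 and Pax6 lie together above the median, and Rgs9, Six3, Gnat2 and Pde6b lie below it.

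The highest levels belonged to mitochondrial, matrix and housekeeping genes. Of the 30 genes with the most reads, mt-Co1 (7412 CPM) came first and Postn (5193 CPM), which encodes the matricellular protein periostin, came second. Fibronectin (Fn1) had 4653 CPM at rank 4, the translation factor Eef1a1 4099 CPM at rank 5 and osteopontin (Spp1) 3196 CPM at rank 8. Of the 75-base windows of Eef1a1, 26.6% recur in other genes. Matrix and secreted products made up a further part of these 30 genes, with Col1a2 at 2134 CPM, Col12a1 at 2109 CPM, Fstl1 at 2015 CPM, Col4a1 at 1986 CPM, the complement component C3 at 1810 CPM and Sparc at 1767 CPM. Actin-linked genes were there too, with the crosslinker Flna at 2394 CPM, Ahnak at 2153 CPM and the nonmuscle myosin Myh9 at 1735 CPM. The others included the aldose reductase Akr1b3 (2284 CPM), the glycolytic enzyme Pkm (2066 CPM), the ubiquitin ligase Nedd4 (2031 CPM), ferritin heavy chain Fth1 (1730 CPM) and the lysosomal protein Lamp1 (1657 CPM).

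Dividing by length moved long genes down and short genes up. Among genes of at least 300 bases, Spp1 led the nuclear genes with 1939 CPM per kb, followed by Eef1a1 with 1644 and Actb with 1308. Postn, second by CPM, stood at rank 21 with 597 CPM per kb, and Fn1 had 398 CPM per kb. Galectin-1 (Lgals1) had 643 CPM per kb, the chemokine Cxcl5 had 591, the chaperone Calr had 465 and the secreted binding protein Igfbp7 had 431, and none of these 4 genes was among the 30 highest by CPM. Of the 30 highest genes on each scale, 19 were shared. Across the 13281 genes, Spearman's rho was 0.88 between CPM and CPM per kb, 0.40 between CPM and length and -0.04 between CPM per kb and length, as a description of genes that share this library. The 100 most abundant genes held 15.8% of the listed reads (15.78 to 15.81, exact Clopper-Pearson) and 1150 genes held 50% of them.

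Cone phototransduction genes were mostly missing from the list. Only Rgs9 and Gnat2 were listed of 19 genes (10.5%), against 54.3% of all protein-coding gene models. Rgs9, which speeds the shutdown of transducin, had 4.55 CPM per kb and 29.1 CPM (26.5 to 31.8). The remaining 17, among them the opsins Opn1sw and Opn1mw, the phosphodiesterase subunits Pde6c and Pde6h, the channel subunits Cnga3 and Cngb3, and cone arrestin Arr3, were not among the listed genes. Both listed cone genes were under the median of all genes per length. In a bulk library, few cells with a transcript and little of it in each cell cannot be told apart. With so few cone genes to check the label against, the cells are named here by their line and not by a retinal cell type.

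Rod genes gave a similar count, with 4 of 21 listed. The lipid-binding trafficking protein Unc119 had 7.15 CPM per kb (17.5 CPM), and the disc-rim tetraspanin Rom1 had 6.38 CPM per kb (9.68 CPM). Impg2, a proteoglycan of the matrix around photoreceptors, had 0.406 CPM per kb (3.77 CPM), and the phosphodiesterase subunit Pde6b had 0.357 CPM per kb (1.79 CPM). Rhodopsin, Gnat1 and Sag were not among the listed genes, nor was any of the 8 opsins searched for. Among the G protein alpha subunits, 12 of 16 were listed and Gnat2 was next to the lowest. The ubiquitous inhibitory subunit Gnai2 had 82.5 CPM per kb (312 CPM), which is 96.1 times Gnat2 per kb (71.2 to 133), and Gnai3 had 68.4 CPM per kb. Gnao1, the subunit most typical of neurons, had 10.6 CPM per kb (117 CPM).

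**Figure D2:**
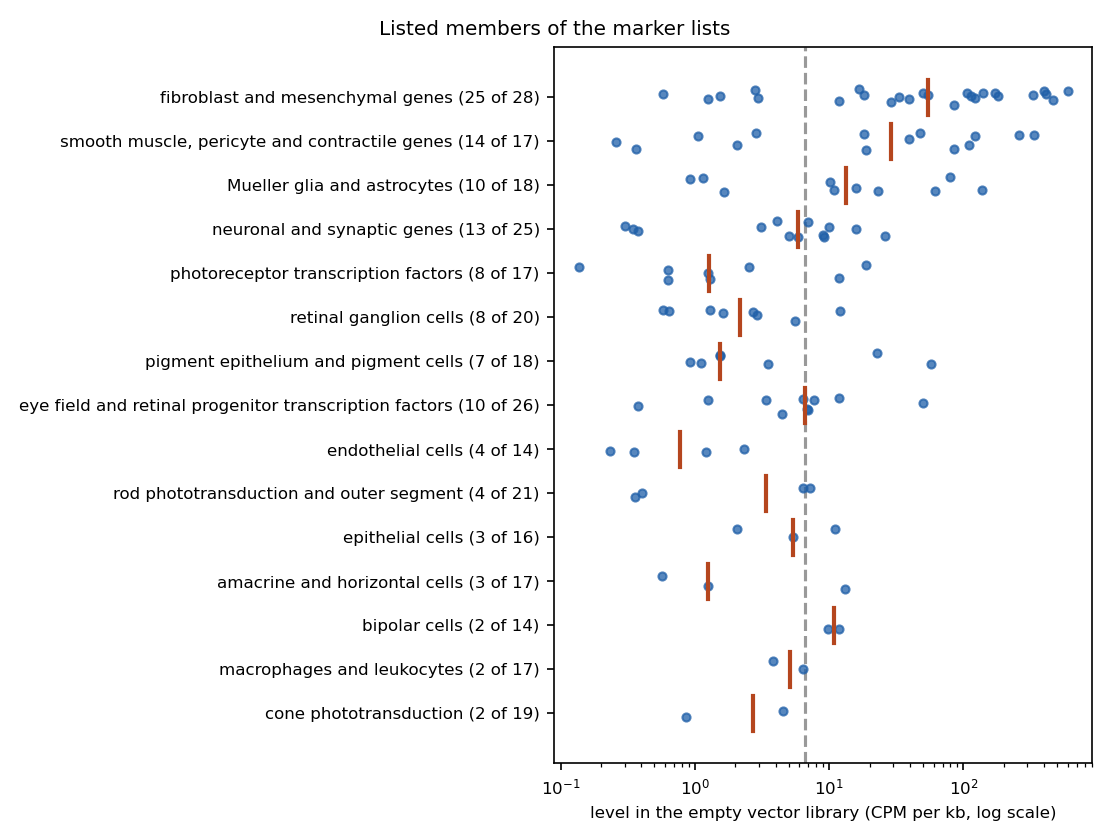
Level of each listed marker gene (CPM per kb, log scale; 1 point per gene) by cell type list, with the number listed of the number searched for in brackets, the list's median as a red bar and the median of all listed genes as a dashed line. The lists run from fibroblast and mesenchymal genes, with 25 of 28 listed, down to cone phototransduction, with 2 of 19 listed.

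Of the photoreceptor transcription factors 8 of 17 were listed (47.1%), near the 54.3% of all protein-coding gene models, with a median of 1.27 CPM per kb. The myocyte enhancer factor Mef2d, which acts with Crx in photoreceptors, had 18.9 CPM per kb (113 CPM) and was the highest, followed by Otx2 at 11.9 CPM per kb. Onecut2, a factor of early cone and horizontal cell precursors, had 2.55 CPM per kb (41.4 CPM). Rorb, a nuclear receptor of rod and cone differentiation, had 1.29 CPM per kb (14.3 CPM), and Thrb, whose beta2 form directs M-cone fate, had 1.24 CPM per kb (9.21 CPM). Counts per gene do not tell the isoforms of Thrb apart. Mef2c, Esrrb and Casz1 ran from 0.635 to 0.137 CPM per kb. Crx, Nrl, Nr2e3, Rxrg and Neurod1 were not among the listed genes.

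Of the eye field and progenitor factors, 10 of 26 were listed. Pax6 had 11.8 CPM per kb and 138 CPM (132 to 143). By CPM, Pax6 was 2.73 times Otx2, whereas per kb the ratio was 0.986 (0.911 to 1.07). That interval includes 1 but covers counting error only. The ratio per kb also depends on lengths that cover all annotated exons, so it does not show that the levels were equal. Meis2 had 7.75 CPM per kb, the Notch effector Hes1 6.98, the ventral retina factor Vax2 6.83 and Meis1 6.40, all close to the median of all listed genes. Lhx2 (4.48), Foxd1 (3.39), Six3 (1.25) and Tbx3 (0.379 CPM per kb) were below it. Six6, Rax and Sox2 were not among the listed genes. Six3, Lhx2, Pax6 and Otx2 thus appeared together in the library at levels that spanned from 1.25 to 11.9 CPM per kb.

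Of the mesenchymal transition factors 14 of 15 were listed, with a median of 8.80 CPM per kb. Snai2, a zinc finger repressor of epithelial genes, had 57.7 CPM per kb (117 CPM), and its relative Snai1 had 1.44 CPM per kb (2.33 CPM), a ratio of 40.1 (29.2 to 56.6). Twist1, a basic helix-loop-helix factor of mesoderm and cranial mesenchyme, had 26.6 CPM per kb, the homeobox factor Prrx1 18.2, Zeb1 16.1 and Runx1 12.2 CPM per kb. From the neural crest and craniofacial mesenchyme list, 12 of 25 genes were listed, with a median of 1.49 CPM per kb. Foxc1, a factor of the periocular mesenchyme, had 7.20 CPM per kb (42.1 CPM). Pax3 had 1.74 CPM per kb and Tfap2a had 1.24 CPM per kb. Hox genes, which pattern the trunk, were low where listed: 7 of 39 were listed, 6 of them from the Hoxa cluster, and the highest, Hoxa4, had 3.17 CPM and 1.99 CPM per kb.

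**Figure D3:**
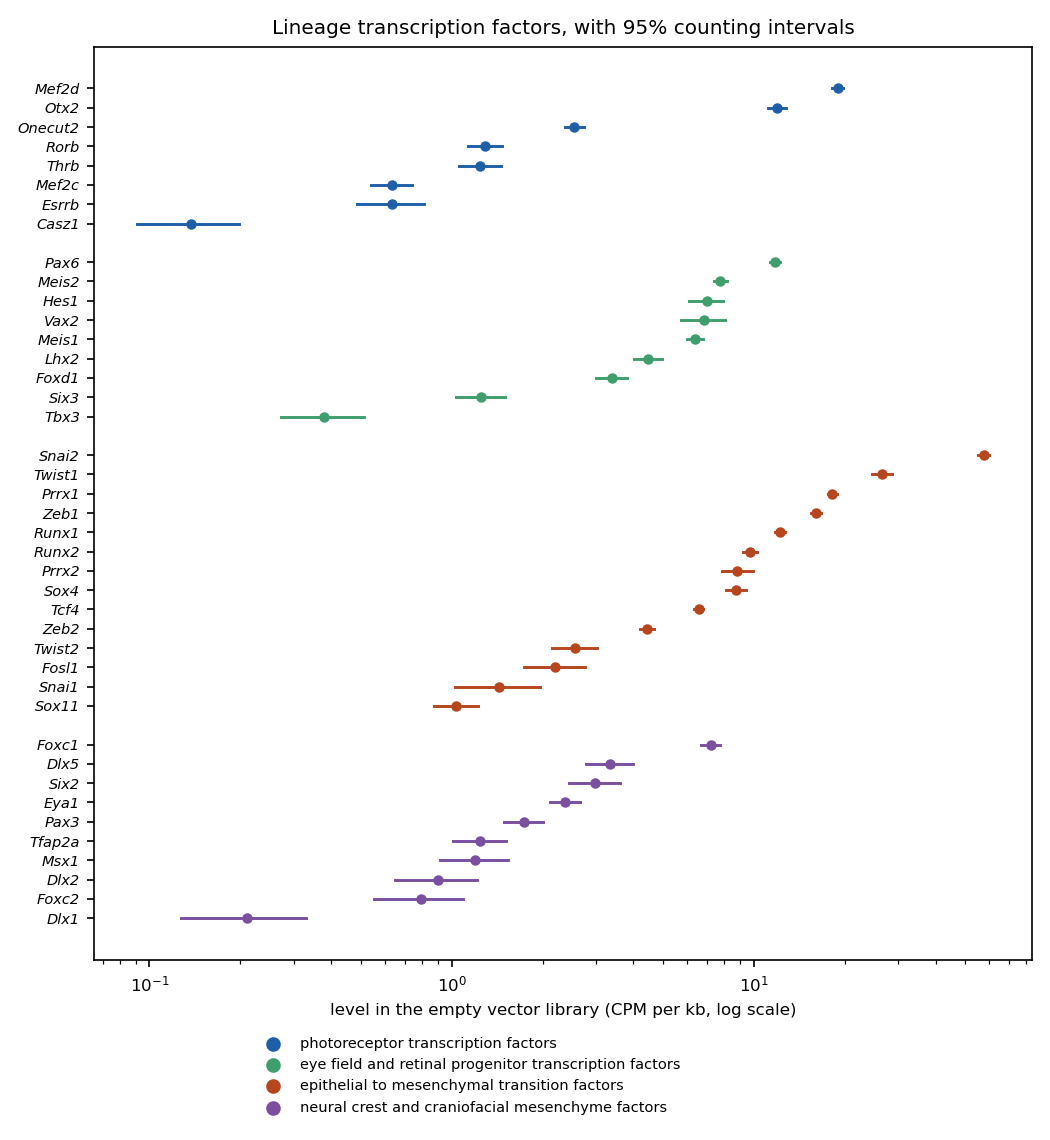
Level of listed lineage transcription factors (CPM per kb, log scale) in the empty vector library, with its 95% counting interval as a bar, grouped by list. Snai2 (57.7) lies to the right, Otx2 (11.9) and Pax6 (11.8) overlap, and Casz1 (0.137) is the lowest.

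Fibroblast and matrix genes were the most complete and highest of the cell type lists. Of 28 genes, 25 were listed, 18 reached 100 CPM and 6 reached 1000 CPM, and their median was 493 CPM and 54.7 CPM per kb, against 29.3 CPM and 6.60 CPM per kb for all listed genes. The median member stood at the 98.3rd percentile by CPM and the 94.8th percentile per kb. Postn, Sparc (467 CPM per kb), Fstl1 (410) and Fn1 (398) were at the top, followed by the prolyl hydroxylase subunit P4hb (331) and the collagen crosslinking enzyme Lox (181). The list was not uniform. Decorin (Dcn), a proteoglycan typical of dermal fibroblasts, had 1.55 CPM per kb (9.03 CPM), the gelatinase Mmp2 had 2.94, and Thy1, the CD90 surface antigen, had 0.579 CPM per kb (1.73 CPM). Lum, Fap and Serpinh1 were not among the listed genes. The receptors Pdgfra (29.1 CPM per kb) and Pdgfrb (39.3 CPM per kb), which mark fibroblasts and pericytes, were both well above the median.

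Among collagen chains, 30 of 44 were listed and 5 reached 1000 CPM. The basement membrane chains Col4a1 (266 CPM per kb) and Col4a2 (156 CPM per kb) were at a ratio of 1.71 (1.68 to 1.74). The type I chains Col1a2 (172 CPM per kb) and Col1a1 (106 CPM per kb) were at a ratio of 1.62 (1.59 to 1.65). Col8a1, a short-chain collagen of the corneal and vascular matrix, had 145 CPM per kb (1138 CPM) and Col12a1 138 CPM per kb. Type VI was uneven, since Col6a1 had 115 CPM per kb and Col6a3 had 1.25 CPM per kb (14.9 CPM). Cartilage type II collagen (Col2a1) was near the limit of the table with 1.79 CPM. Of 11 laminin chains 9 were listed, led by Lamb1 (49.7 CPM per kb), Lamb2 (44.6) and Lamc1 (38.0), with Lama5 (14.6 CPM per kb) as the highest alpha chain. The cell's receptors for this matrix were led by Itgb1 with 304 CPM per kb (1242 CPM), then Itgb5 (101), Itga3 (62.3) and Itgav (45.1 CPM per kb). Of 26 integrin subunits 17 were listed.

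Contractile genes gave a mixed picture. Of 17 genes 14 were listed, and the actin-linked genes that many cultured cells express were high, with Tpm4 at 334 CPM per kb, smooth muscle actin Acta2 at 259 (569 CPM) and Tpm1 at 123 CPM per kb. Genes of differentiated smooth muscle were low: Cnn1 had 2.86 CPM per kb, desmin (Des) had 0.366 and the myosin heavy chain Myh11 had 0.260. Tagln had 1.05 CPM per kb, but 67.9% of its exons overlap a gene on the opposite strand, and the strand setting of the counting is not given in the sources used here. Intermediate filaments followed the same line, with vimentin (Vim) at 137 CPM per kb (652 CPM) and nestin (Nes) at 69.0 (442 CPM), against 5.37 CPM per kb for the keratin Krt18. Gfap, the neurofilament genes and Krt8 were not among the listed genes. Cdh11 (34.5 CPM per kb, 307 CPM) and Cdh2 (26.7 CPM per kb, 215 CPM) were the highest of 6 listed among 15 cadherins, and E-cadherin (Cdh1) was not among the listed genes.

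Other retinal cell types differed in the share of their genes that was listed. For Mueller glia and astrocytes it was 55.6%, near the 54.3% of all protein-coding gene models. It was lower for ganglion cells (40%), pigment cells (38.9%), amacrine and horizontal cells (17.6%) and bipolar cells (14.3%). Of 18 Mueller glia and astrocyte genes 10 were listed, with a median of 13.3 CPM per kb, and besides Vim the highest were Dkk3 (80.1 CPM per kb, 269 CPM) and the glutamate transporter Slc1a3 (61.7 CPM per kb, 527 CPM). Glutamine synthetase (Glul), the defining enzyme of Mueller glia, had 10.8 CPM per kb (35.99 CPM), and Rlbp1, Aqp4 and Kcnj10 were not among the listed genes. Of 20 ganglion cell genes 8 were listed, led by Nrn1 (12.1 CPM per kb, with 22.3% of its exons overlapping the opposite strand) and Tubb3 (5.54). Both Pou4f1 and Pou4f2 were missing from the list. Bipolar cells were represented by Otx2 and the kinase Prkca (9.75 CPM per kb, 87.6 CPM), 2 of 14 genes. Amacrine and horizontal cells had 3 of 17 genes, namely Slc6a9 (13.1 CPM per kb, with 30.2% of its exons overlapping the opposite strand), Tfap2a and Lhx9. Of 18 pigment cell genes 7 were listed, and the lysosomal glycoprotein Gpnmb had 57.7 CPM per kb (376 CPM), while the pigment factor Mitf had 3.51 and the melanosomal protein Pmel had 1.12 CPM per kb. Rpe65, Tyr and Tyrp1 were not among the listed genes.

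General neuronal genes had a median of 5.89 CPM per kb, close to that of all listed genes, with 13 of 25 listed. Uchl1, an abundant neuronal deubiquitinase, had 26.0 CPM per kb, Ncam1 had 15.8 (137 CPM) and the dendritic protein Map2 had 9.03 (148 CPM). The synaptic vesicle genes were low, with Slc17a7 at 0.377 CPM per kb and Syt1 at 0.301 CPM per kb, and Snap25, Syp and Rbfox3 were not among the listed genes. Genes of cells from outside the retina and mesenchyme were also few. Of 17 leukocyte genes 2 were listed (Cd14 with 6.39 and Cd68 with 3.85 CPM per kb), of 14 endothelial genes 4 (at most 2.32 CPM per kb, Flt1) and of 16 epithelial genes 3, led by Cdh3 with 11.2 CPM per kb (48.9 CPM). Ptprc, Pecam1 and Epcam, which define these lineages, were not among the listed genes.

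Some genes for secreted signals were among the highest of the library, while the lists as a whole were not. The growth factor and cytokine list had a median of 31.6 CPM and 9.31 CPM per kb, and the chemokine list had a median of 14.8 CPM and 5.69 CPM per kb, against 29.3 CPM and 6.60 CPM per kb for all listed genes. Spp1 and the macrophage growth factor Csf1 (124 CPM per kb, 654 CPM) stood out among 41 of 51 growth factor and cytokine genes listed, together with the matricellular protein Cyr61 (169 CPM per kb, 342 CPM). Among growth factors proper, Vegfa had 26.4 CPM per kb, Tgfb2 24.7, Bmp4 22.9 and Fgf10 19.5 CPM per kb (89.8 CPM). Interleukin-6 was near the limit of the table with 2.75 CPM. Of 29 chemokines 18 were listed and 7 reached 100 CPM. The neutrophil attractants Cxcl5 (591 CPM per kb, 1101 CPM) and Cxcl1 (366 CPM per kb, 687 CPM) and the monocyte attractants Ccl2 (378 CPM per kb, 430 CPM) and Ccl7 (251 CPM per kb, 201 CPM) were the highest. The related Cxcl2 had 3.93 CPM per kb, and Cxcl12, the stromal chemokine, had 13.2 CPM per kb.

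Among receptor tyrosine kinases 31 of 52 were listed, 10 of them at or above 100 CPM. Axl, a receptor for Gas6, was the highest with 124 CPM per kb (622 CPM), whereas its relatives Tyro3 (3.54) and the phagocytic receptor Mertk (0.924 CPM per kb) were below the median. The collagen receptors Ddr1 (55.4) and Ddr2 (32.5), Fgfr1 (34.8), Epha2 (32.7) and Met (17.5 CPM per kb) were above it. Egfr had 2.80 CPM per kb and Erbb3 had 0.388 CPM per kb.

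All 25 DNA replication genes and all 25 mitosis genes were listed. The replication genes had a median of 130 CPM and 28.5 CPM per kb, led by the helicase subunit Mcm4 (167 CPM per kb, 599 CPM) and the sliding clamp Pcna (109 CPM per kb). Fen1 was the lowest with 3.95 CPM per kb, and 84.2% of its exons overlap a gene on the opposite strand. The mitosis genes had a median of 72.2 CPM and 14.6 CPM per kb, and the topoisomerase Top2a (39.6) and the proliferation marker Mki67 (29.3 CPM per kb, 294 CPM) were near the top. All 17 genes of the Rb and E2F list were listed as well, from Tfdp1, the dimer partner of E2F (95.2 CPM per kb), to E2f2 (0.967 CPM per kb). E2f1 had 14.2, E2f3 had 8.15 and Rb1 itself had 6.95 CPM per kb (41.8 CPM).

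The inhibitors of cyclin-dependent kinases differed widely. Cdkn2a, which encodes p16Ink4a and p19Arf, had 255 CPM per kb and 299 CPM, the highest level per length of 22 listed genes of cyclins, kinases and inhibitors. Counts per gene do not tell the p16Ink4a and p19Arf transcripts apart. Cdkn1a, which encodes the p53-induced inhibitor p21, had 3.43 CPM per kb and 12.2 CPM, so that Cdkn2a was 74.3 times Cdkn1a per kb (64.6 to 85.9). Cdkn2c (59.6), Cdkn1b (46.4) and Cdkn2b (42.3 CPM per kb) were between them. The D-type cyclins, which act upstream of Rb, were at 20.1 (Ccnd1, with 23.4% of its exons overlapping the opposite strand), 11.6 (Ccnd2) and 8.92 CPM per kb (Ccnd3), and Cdk4 had 103 CPM per kb.

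Trp53 had 40.4 CPM per kb (163 CPM), and all 22 genes of its list were listed, with a median of 9.48 CPM per kb. The targets of p53 differed in level. Plk2 (52.6), Sesn1 (40.8), Perp (36.3) and Ccng1 (24.9 CPM per kb) were high, and the negative regulator Mdm2 had 20.4 CPM per kb (104 CPM). The death genes Bax (14.5), Bbc3 (3.32) and Pmaip1 (2.54 CPM per kb) and the receptor Eda2r (1.31 CPM per kb) were lower.

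**Figure D4:**
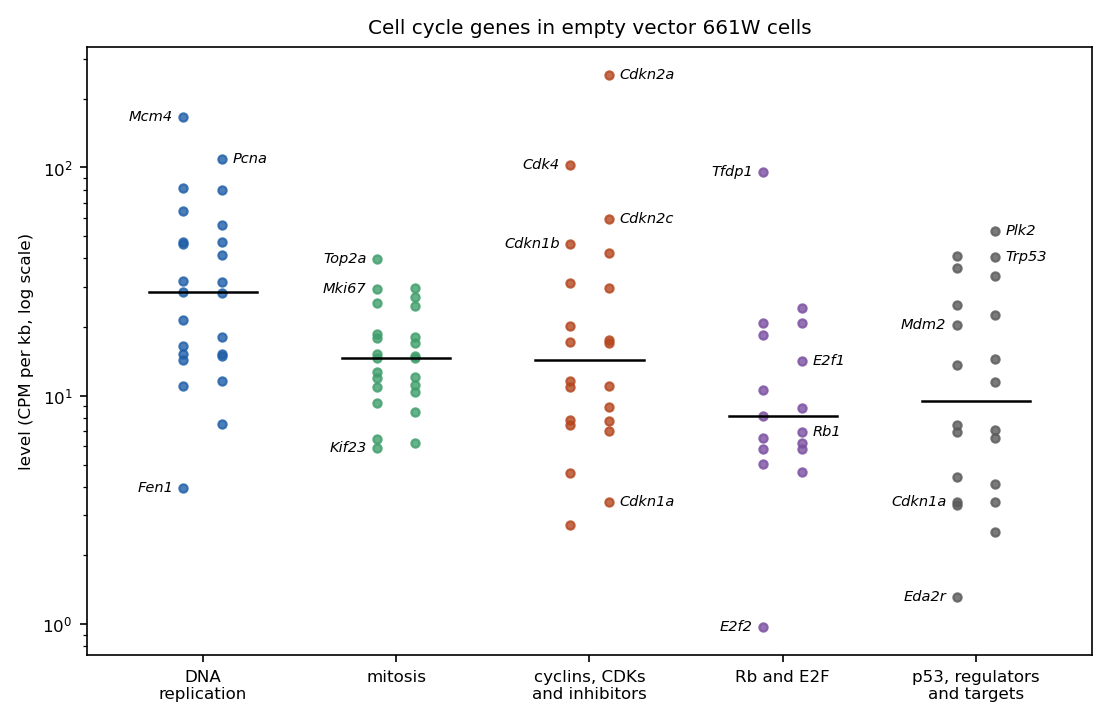
Level of each listed cell cycle gene (CPM per kb, log scale; 1 point per gene) in the empty vector library, with the median of each list as a black bar. Cdkn2a (255) lies far above Cdkn1a (3.43), which is plotted in both lists that hold it, and the replication genes have the highest median (28.5).

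Since the study concerned the chaperone HSP90 and its clients, its machinery was described as well. All 26 genes were listed, with a median of 244 CPM and 47.1 CPM per kb. Hsp90ab1, the constitutive cytosolic form, had 711 CPM per kb (2133 CPM), and the inducible form Hsp90aa1 had 446 CPM per kb (1753 CPM), with 42.8% of its windows found in other genes. The reticulum form Hsp90b1 had 231 CPM per kb and the mitochondrial form Trap1 had 38.3. Of the co-chaperones, Stip1, which links HSP70 to HSP90, had 190 CPM per kb, and p23 (Ptges3) had 151. Cdc37, which brings kinases to HSP90, had 18.5 CPM per kb (151 CPM). Hsp90ab1 was 38.5 times Cdc37 per kb (36.97 to 40.1) and 14.1 times Cdc37 by CPM. The ratio per kb depends on lengths that cover all annotated exons, and its interval covers counting error only. The stress-induced Hspa1a (3.06) and Hspa1b (54.7 CPM per kb) shared 54.2% and 55.8% of their windows with other genes, and their values are uncertain.

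Among 9 mouse genes with RT-qPCR primers, 8 were listed and Opn1sw was not. The paper measured Opn1sw by RT-qPCR relative to empty vector cells and reported a rise with wild-type TRPM1. Being unlisted therefore does not show that its transcript was absent. The levels of the listed genes, other than that of Actb, ran from 2.38 to 26.9 CPM per kb. Nfe2l2, the master regulator of the antioxidant response, had 26.9 CPM per kb (102 CPM), the ciliary GTPase Arl13b had 9.32 (47.4 CPM), Hes1 had 6.98 (14.2 CPM) and the Wnt co-receptor Lrp5 had 6.09 CPM per kb (59.3 CPM). The cilium genes Ift88 (4.56), Cep164 (2.90) and Rpgrip1l (2.38 CPM per kb) were below the median of all listed genes. Actb, used there for normalization, was 1308 CPM per kb. Among 17 common reference genes, levels ran from Eef1a1 (1644 CPM per kb) to Tbp (4.56 CPM per kb), with a median of 155 CPM per kb.

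Mitochondrially encoded genes held 2.77% of the listed reads (2.767 to 2.783). Of 37 genes 22 were listed, namely 11 protein-coding, 2 ribosomal RNA and 9 transfer RNA genes, and 8 reached 1000 CPM. Since the 37 genes include noncoding ones, the share of protein-coding gene models is no background for this count. Several subunits of complex I and the complex III subunit mt-Cytb were high, with mt-Nd1 at 5008 CPM per kb, mt-Cytb at 2963, mt-Nd2 at 2752, mt-Nd6 at 1908 and mt-Nd5 at 1657 CPM per kb, whereas the complex I subunits mt-Nd3 and mt-Nd4l were not among the listed genes. In contrast, the subunits mt-Co2 (42.8), mt-Atp6 (14.0) and mt-Co3 (11.0 CPM per kb) were low, and mt-Co1 was 112 times mt-Co2 per kb (103 to 123). For these 3 genes more than 99% of the 75-base windows recur in an annotated nuclear copy on chromosome 1. The windows of mt-Co2 recur in Gm28661 (99.5%), whose sequence is given above and which had 20.9 CPM. Those of mt-Atp6 recur in Gm10925 (99.5%; 22.5 CPM) and those of mt-Co3 in Gm28437 (99.9%; 15.3 CPM). The unlisted mt-Nd3 also had an annotated copy there, Gm28438, which held 97.8% of its windows and had 16.1 CPM. Among the listed protein genes, mt-Nd4 came next, with 997 CPM per kb and 61.5% of its windows in another gene. After it came mt-Co1, with 4798 CPM per kb and 39.8%. Low or unlisted genes for which no annotated copy was found were seen as well. For mt-Atp8, 0% of the windows recur in another annotated gene, and it had 4.98 CPM per kb (17 reads), with 21.1% of its length overlapping mt-Atp6. For mt-Nd4l, 0% of the windows recur in an annotated nuclear copy, and it was not among the listed genes. Only annotated genes were searched for copies. The sequence of chromosome 1 between the annotated copies was not searched, so a copy of mt-Atp8 or mt-Nd4l there would have been missed. How the counting treated reads with several matches is not given in the sources used here.

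**Figure D5:**
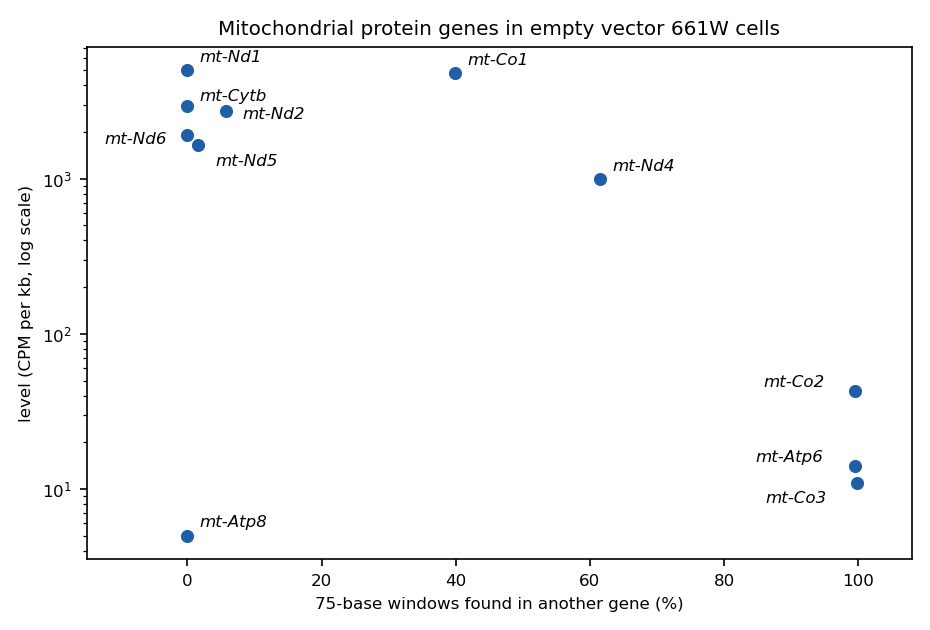
Level of each listed mitochondrial protein gene (CPM per kb, log scale) against the percentage of its 75-base windows found in another annotated gene. The genes with under 6% shared windows lie between 1657 and 5008 CPM per kb, except for mt-Atp8 at 4.98, and the 3 genes above 99% lie between 11.0 and 42.8.

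Noncoding genes added little to the library, as 984 genes of long noncoding types held 1.08% of the listed reads (1.077 to 1.087) and 302 pseudogenes held 0.217% (0.215 to 0.220). By CPM, the nuclear RNAs Malat1 (1694 CPM, 243 CPM per kb) and Neat1 (1044 CPM, 50.3 CPM per kb) were the highest of them. The imprinted H19 had 320 CPM and 130 CPM per kb, and the short Bc1 had 84.2 CPM and 501 CPM per kb. The ribosomal RNA gene CT010467.1 held 2208 CPM in a library made by mRNA capture. Of its length, 73.9% overlaps a gene on the opposite strand and 37.4% a gene on the same strand. In addition, 35.2% of its windows recur in other genes.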

How the data were processed

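RNA-seq of 661W cells with the empty vector (1 library) was analysed. By the methods and the submitters' processing notes, mRNA libraries (KAPA mRNA HyperPrep, Illumina NovaSeq) were aligned to GRCm38 with HISAT2 2.1.0, counted with featureCounts 2.0.0 and processed with edgeR 3.28.1 and DESeq 1.40.0. For the annotation release, strand setting and read length, the value is not given in the sources used here.

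The authors deposited CPM values for 13281 genes, all above 1 in both libraries. The column of the 3xF-TRPM1 library, a scaled count used as a signal, was deposited by the authors and served only to check that filter. The authors' comparison columns (fold change, p-value, adjusted p-value) and a table of gene set scores were not used, nor were 2 further columns of values per library. The median length was 4346 bases. Lengths equalled the exon union of GENCODE M21 for all 13281 genes, all identifiers matched, 105 blank symbols were filled in and 20 symbols turned into dates were restored.

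CPM values were divided by their common step (100% whole within 0.01 of a step) to give reads, out of an effective library size of 16728172. Levels were given as CPM, as CPM per kb and as ranks, with 95% exact Poisson intervals; ratios used exact Clopper-Pearson intervals. Reads without molecular identifiers are not independent molecules, so the intervals cover counting error only. No test across genes was possible with 1 library. Shared sequence was searched in 75-base windows over all GENCODE transcripts, and the search and the recovery of reads were checked on simulated data.

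The gene lists and named genes (the 5 genes that mark the line, the 30 highest by CPM, the 30 highest by CPM per kb among genes of at least 300 bases, and list members) were chosen with earlier results of these data known. A few genes picked this way are not reported here, though they count in their lists, and the plot of lineage factors omits them. A gene counted as listed when it stood in the table. Alternatives were limits of 5 and 10 CPM, ranks per kb, ranks among protein-coding genes, rescaling the listed values to a common total, and leaving out genes with shared or overlapping sequence. Values were computed in Python 3.11.15 with pandas 2.3.3, intervals with scipy 1.17.1 and numpy 2.4.6, and plots with matplotlib 3.10.9.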

Additional observations from a re-analysis of the deposited data

How the results depend on the processing

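The number of genes at or above 100 CPM was 2541, 2591 after rescaling the listed values to the full library total, and 294 at 100 CPM per kb. The share of the listed CPM in the 100 highest genes was 15.8%, 27.1% per kb, and 14.3% without ribosomal protein and mitochondrial genes. With a limit of 5 CPM, 1 cone gene and 2 rod genes were left of 2 and 4. With a limit of 10 CPM, 1 cone gene, 1 rod gene and 4 of 8 photoreceptor factors were left, while the eye field factors kept 7 of 10 and the fibroblast list kept 21 of 25. The median percentile by CPM, per kb and among protein-coding genes was 30.04, 24.6 and 25.4 for cone genes, 21.1, 26.0 and 15.3 for rod genes, 31.1, 14.5 and 24.8 for photoreceptor factors, 39.2, 50.1 and 33.4 for eye field factors, and 98.3, 94.8 and 98.2 for fibroblast genes. The exon union of GENCODE M21 gave the same values, as it had to, because it equalled the length in the table for all 13281 genes. Leaving out genes with shared or overlapping sequence was an alternative chosen after seeing the data. The cone, rod, photoreceptor factor and eye field lists held no such gene, so this setting could not change them. The fibroblast list lost 1 gene, and its median percentile by CPM went from 98.3 to 98.4. The fibroblast list was the highest of the 5 under each of these settings. No paired analysis was possible because the report rests on 1 library. With 1 library there is no estimate of the spread between cultures, genes near 1 CPM rest on about 17 reads, and levels per kb use the union of all annotated exons and so understate genes that use a short transcript.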

Other observations

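Genes of the Y chromosome were listed at levels above the median of all genes by CPM. Per kb, Ddx3y and Eif2s3y were above the median of 6.60, and Kdm5d and Uty were below it. Ddx3y had 113 CPM (21.7 CPM per kb), Eif2s3y 48.8 CPM (11.7 CPM per kb), Kdm5d 44.5 CPM (2.93 CPM per kb) and Uty 38.2 CPM (3.90 CPM per kb). Their X-linked partners had 1036 CPM (Ddx3x, 196 CPM per kb), 186 CPM (Eif2s3x, 48.8 CPM per kb, with 34.2% of its windows in other genes), 180 CPM (Kdm5c, 25.3 CPM per kb) and 56.9 CPM (Kdm6a, 6.78 CPM per kb). Xist and Tsix were not among the listed genes.

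All 20 genes of glycolysis and its transporters were listed, with a median of 158 CPM and 34.8 CPM per kb. Pkm was the highest (413 CPM per kb), followed by Gapdh (229) and Pgk1 (212 CPM per kb), of whose windows 22.6% and 52.8% recur in other genes. Ldha had 149 CPM per kb against 28.1 CPM per kb for Ldhb. The glucose transporter Slc2a1 had 64.7 CPM per kb, Hk1 had 20.8 and Hk2 had 10.8 CPM per kb, and the lactate exporter Slc16a3 had 2.78 CPM per kb against 14.9 CPM per kb for Slc16a1.

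Of 87 cytosolic ribosomal protein genes 84 were listed, with a median of 168 CPM and 85.0 CPM per kb, and 42 of them shared or overlapped sequence with other genes. The lowest, Rpl24 (2.15 CPM per kb), shared 50.3% of its windows, and Rps3a1, with 506 CPM per kb, shared 60.2%.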
